A study of Canis lupus familiaris with 24 samples.

Results

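The genes described here build and control sterols and fatty acids. They were taken by name from a list of 34 symbols. No cutoff on a measured value picked them, but the list was chosen with earlier results of these data known. Of the 34 symbols, 31 were found among the 32704 genes of the dog count table, and all 31 passed the filter on low counts that left 12466 genes for testing. HMGCS1, IDI1 and EBP had no row under these symbols and were not analysed here. FADS1 passed the filter through its MDCK-NBL2 libraries, since its counts in MDCK-II were close to 0. Counts of changed genes in comparisons that involve MDCK-II are therefore given over the other 30 genes, and FADS1 is described apart. Counts of called genes under other settings leave it out in the same comparisons.

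RNA was measured in cultured MDCK cells, an established epithelial line from dog kidney, in its sublines MDCK-II and MDCK-NBL2. Each subline gave untreated cells of day 0 and of day 4, and cells kept to day 4 under TGFb. This cytokine induces epithelial-mesenchymal transition (EMT), the turn of epithelial cells into migratory, matrix-making cells. Further MDCK-NBL2 cells received TGFb to day 4 together with siCTR, a control siRNA, or with siPRRX1, an siRNA that silences the transcription factor PRRX1. There were 8 groups of 3 libraries, and no genetic change is given for any of them. The labels name the untreated cells epithelial, the TGFb-treated MDCK-II cells partial EMT, the TGFb-treated MDCK-NBL2 cells with or without siCTR full EMT, and those with siPRRX1 partial EMT. Replicates carry numbers, but no label calls them separate cultures, and the spread behind each p-value is that of the libraries, which may be technical.

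Cells make cholesterol from acetyl-CoA through mevalonate, squalene and a series of sterol ring intermediates, and they make fatty acids from the same acetyl-CoA through malonyl-CoA. Both pathways are switched on by the SREBP transcription factors. When membranes hold enough sterol, INSIG proteins keep SCAP, the escort of SREBP, in the endoplasmic reticulum. When sterol falls, SCAP carries SREBP to the Golgi, where it is cut and released to the nucleus, and INSIG1 is itself a target of SREBP. In an epithelium such as the kidney tubule these lipids supply the apical and basolateral membranes. Of the 31 genes, 8 act from acetyl-CoA to squalene epoxide (ACAT2, AACS, MVK, PMVK, MVD, FDPS, FDFT1 and SQLE) and 8 on the sterol ring (LSS, CYP51A1, TM7SF2, MSMO1, NSDHL, HSD17B7, SC5D and DHCR7). A further 5 belong to the control of SREBP (INSIG1, INSIG2, SREBF1, SREBF2 and SCAP), 2 move sterol within the cell (STARD4 and NPC1), and 8 act in fatty acid and glycerolipid synthesis (ACLY, ACACA, FASN, ELOVL6, SCD, FADS1, FADS2 and LPIN1).

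Total counts ran from 6134929 to 27567296 per library, and the lowest range was in TGFb-treated MDCK-NBL2 cells, from 6134929 to 9413761. Levels are counts per 1000000 (CPM) after TMM scaling, given for replicates 1, 2 and 3 in that order, and changes are log2 fold changes ± SE from edgeR's quasi-likelihood test, called at a Benjamini-Hochberg adjusted p under 0.05 over all genes tested. Of 8 kidney epithelial markers, 6 were in the table, with a summed level of 2315 to 7446 CPM in every library. The sum does not show single markers: CDH16 was at 0 in all TGFb-treated MDCK-NBL2 groups. With TGFb in that line 5 of the 6 fell, where 23.4% of all genes did. The 5 hepatocyte markers summed to at most 0.208 CPM and the 4 adipocyte markers in the table to between 0.918 and 11.4 CPM. A single library stood apart: on a principal component with 56.9% of the variance, MDCK-NBL2 untreated day 4 replicate 2 lay at 73.7, against 3.7 and -5.4 in the other replicates of its group and 105.3 to 122.5 in TGFb-treated cells of that line. Another went in part against its line: of 51 genes with at least 5 CPM in every MDCK-II day 0 library and at most 0.2 CPM in MDCK-NBL2 day 0 replicates 2 and 3, MDCK-NBL2 day 0 replicate 1 held a median of 1.59 CPM, 9.63% of the MDCK-II level. The same measure was at most 1.19% in the other MDCK-NBL2 groups and had a median of 0% in every MDCK-II library. For each comparison that includes 1 of these libraries, the count of called sterol and fatty acid genes is given without it as well. Values of single genes are given so only in part. Results for markers, other gene lists and named genes outside the list are given with all libraries only.

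From day 0 to untreated day 4, sterol and fatty acid genes rose in both sublines. In MDCK-II 20 of 30 rose and 0 fell, where 5.76% of all tested genes rose and 4.05% fell. The median log2 fold change was 0.79 over the 30 genes and -0.00 over all tested genes. In MDCK-NBL2 19 of the 31 rose and 0 fell, where 12.4% of all genes rose and 5.26% fell, with medians of 0.59 and 0.06. The plot of these changes shows 29 of 30 genes to the right of 0 in MDCK-II and 29 of 31 in MDCK-NBL2. These are changes per cell culture, and fewer cells of a type cannot be told apart from less RNA per cell.

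**Figure D1:**
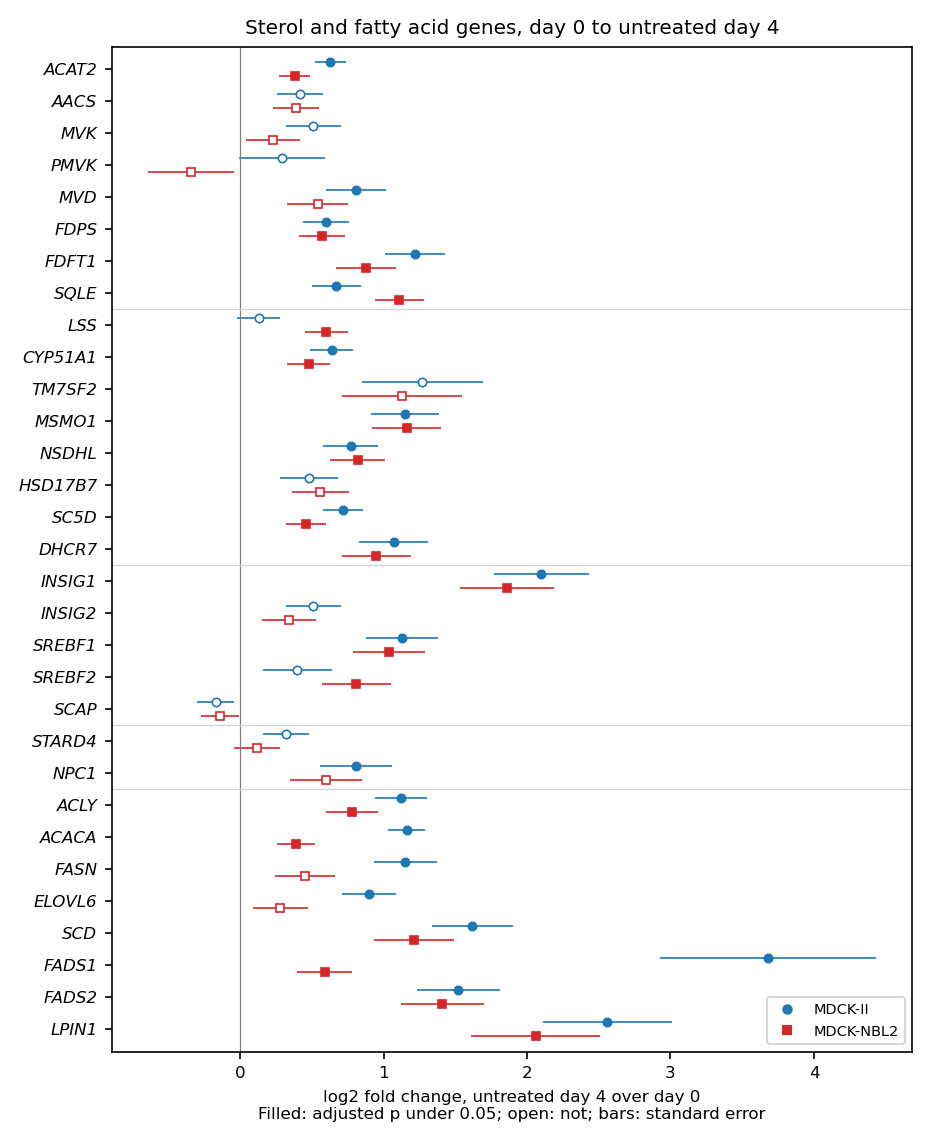
Log2 fold change from day 0 to untreated day 4 (horizontal axis, bars are SE) of each of the 31 genes, ordered by role from the mevalonate steps at the top to the fatty acid steps at the bottom, in MDCK-II (blue circles) and MDCK-NBL2 (red squares). Filled symbols passed the test: 20 of 30 genes in MDCK-II and 19 of 31 in MDCK-NBL2, all above 0. The filled MDCK-II symbol of FADS1 is not counted as a result, since it rests on 1 count at day 0 and 19 at day 4.

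The largest rise among the control genes was that of INSIG1, which retains SCAP. In MDCK-II INSIG1 stood at 127, 190.2 and 93.8 CPM at day 0 and at 826, 503 and 433 CPM at day 4. In MDCK-NBL2 it stood at 65.9, 62.1 and 40.9 CPM and then at 282, 204 and 129 CPM. All day 4 libraries lay above all day 0 libraries of the same line, with changes of 2.10 ± 0.33 (adjusted p = 0.000699) and 1.86 ± 0.33 (adjusted p = 0.00315). SREBF1, whose product favours fatty acid genes, went from 165, 162 and 135 CPM to 478, 284 and 247 CPM in MDCK-II and from 162, 160.4 and 133 CPM to 409, 339 and 189.5 CPM in MDCK-NBL2. Its groups did not overlap in either line, and the changes were 1.13 ± 0.25 (adjusted p = 0.00883) and 1.04 ± 0.25 (adjusted p = 0.0116). SREBF2, whose product favours sterol genes, was at 325, 361 and 295 CPM and 659.6, 353 and 282 CPM in MDCK-II, where the groups overlapped (0.40 ± 0.24, adjusted p = 0.3). In MDCK-NBL2 it rose from 222, 224 and 162 CPM to 479, 321 and 265 CPM (0.81 ± 0.24, adjusted p = 0.0304). INSIG2 and SCAP were called in neither line, and SCAP had the only negative change of the group in MDCK-II, at -0.17 ± 0.13.

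Among the 8 genes from acetyl-CoA to squalene epoxide, 5 rose in MDCK-II and 4 in MDCK-NBL2. FDFT1, squalene synthase, which commits carbon to sterols, went from 119.7, 169 and 99.2 CPM to 425, 249.5 and 231 CPM in MDCK-II (1.22 ± 0.21, adjusted p = 0.00154). In MDCK-NBL2 it went from 71.6, 72.6 and 59.1 CPM to 122, 109 and 144 CPM (0.88 ± 0.21, adjusted p = 0.0111). SQLE, squalene epoxidase and a slow step of the pathway, had the smallest adjusted p of the 31 genes in MDCK-NBL2, going from 258, 269 and 217 CPM to 484, 632 and 493 CPM (1.11 ± 0.17, adjusted p = 0.00205), against 0.67 ± 0.17 (adjusted p = 0.0166) in MDCK-II. ACAT2, which condenses acetyl-CoA units, rose by 0.63 ± 0.11 in MDCK-II and 0.38 ± 0.11 in MDCK-NBL2. FDPS, which makes farnesyl diphosphate, rose by 0.60 ± 0.16 and 0.57 ± 0.16. MVD, the mevalonate decarboxylase, rose in MDCK-II by 0.81 ± 0.21 (adjusted p = 0.0205) and stood at 0.54 ± 0.21 (adjusted p = 0.0794) in MDCK-NBL2. AACS, MVK and PMVK were called in neither line, and PMVK had fewer than 7 CPM in every library.

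Among the 8 sterol ring genes, 5 rose in MDCK-II and 6 in MDCK-NBL2. MSMO1, a methylsterol oxidase, changed by 1.15 ± 0.24 (adjusted p = 0.00575) in MDCK-II and 1.16 ± 0.24 (adjusted p = 0.00674) in MDCK-NBL2, from 31.5, 35.9 and 25.9 CPM to 63.7, 87.0 and 57.7 CPM in the latter. NSDHL, which removes methyl groups from the ring, went from 22.5, 26.8 and 17.0 CPM to 37.6, 39.1 and 41.1 CPM in MDCK-NBL2 (0.82 ± 0.19, adjusted p = 0.0111) and changed by 0.77 ± 0.19 in MDCK-II. SC5D, a sterol desaturase, went from 38.2, 48.2 and 37.4 CPM to 81.3, 59.2 and 64.3 CPM in MDCK-II (0.72 ± 0.14, adjusted p = 0.00338) and changed by 0.46 ± 0.14 in MDCK-NBL2. DHCR7, which makes cholesterol from its direct precursor, rose by 1.07 ± 0.24 and 0.95 ± 0.24, and CYP51A1, the lanosterol demethylase, by 0.64 ± 0.15 and 0.48 ± 0.15. LSS, which closes the ring to lanosterol, was called in MDCK-NBL2 (0.60 ± 0.15, adjusted p = 0.0129) and not in MDCK-II (0.13 ± 0.15, adjusted p = 0.613). TM7SF2 and HSD17B7, both reductases, were called in neither.

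Of the fatty acid and glycerolipid genes other than FADS1, 7 of 7 rose in MDCK-II, with a median of 1.16, and 5 of 7 in MDCK-NBL2, with a median of 0.78. ACACA, which makes malonyl-CoA and sets the rate of fatty acid synthesis, went from 319.9, 365 and 303 CPM to 777, 709 and 722 CPM in MDCK-II (1.16 ± 0.13, adjusted p = 6.26e-05). In MDCK-NBL2 it went from 145, 135 and 125 CPM to 172, 192 and 166 CPM (0.39 ± 0.13, adjusted p = 0.0482). ACLY, which supplies cytosolic acetyl-CoA from citrate, went from 712, 861 and 605 CPM to 2031, 1398 and 1301 CPM in MDCK-II (1.12 ± 0.18, adjusted p = 0.00111) and from 615, 689 and 626 CPM to 939, 1411 and 959 CPM in MDCK-NBL2 (0.78 ± 0.18, adjusted p = 0.0108). None of these groups overlapped between the days.

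FASN, fatty acid synthase, rose in MDCK-II from 981, 1126 and 759 CPM to 2380, 2127 and 1875 CPM (1.15 ± 0.22, adjusted p = 0.00268), and in MDCK-NBL2 its change was 0.45 ± 0.21 (adjusted p = 0.136). ELOVL6, which lengthens palmitate, went from 41.1, 46.9 and 36.6 CPM to 66.7, 83.8 and 82.8 CPM in MDCK-II (0.90 ± 0.19, adjusted p = 0.0066), and in MDCK-NBL2 its groups overlapped (0.28 ± 0.19, adjusted p = 0.292). The desaturases rose in both lines: SCD, which puts the first double bond into saturated chains, by 1.62 ± 0.28 and 1.21 ± 0.28, and FADS2, which acts on polyunsaturated chains, by 1.52 ± 0.29 and 1.41 ± 0.29. LPIN1, which makes diacylglycerol, went from 21.9, 28.6 and 16.2 CPM to 209, 100.2 and 88.0 CPM in MDCK-II (2.56 ± 0.45, adjusted p = 0.00171) and from 26.3, 11.97 and 7.81 CPM to 65.7, 101 and 26.4 CPM in MDCK-NBL2 (2.06 ± 0.45, adjusted p = 0.00772). NPC1, which exports cholesterol from lysosomes, rose in MDCK-II (0.81 ± 0.25, adjusted p = 0.0477) and stood at 0.60 ± 0.25 (adjusted p = 0.0948) in MDCK-NBL2, while the sterol carrier STARD4 was called in neither. The per-library values of FASN, FADS2, LPIN1, SQLE, MSMO1, NPC1, TM7SF2 and DHCR7 were chosen for printing after they were seen.

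In all, 16 of 30 genes rose in both lines, where 2.59% of all tested genes did. They are 80.0% of the 20 that rose in MDCK-II and 88.9% of the 18 in MDCK-NBL2, and over all genes the same shares were 45.0% and 20.8%; MVD, NPC1, FASN and ELOVL6 were called in MDCK-II alone, and LSS and SREBF2 in MDCK-NBL2 alone. The difference between the lines was itself tested, in a comparison added after seeing the data. It called 0 of 30 genes with edgeR, where 0.112% of all genes were called. It again called 0 of 30 without MDCK-NBL2 day 0 replicate 1, where 0.0318% of all genes had a higher change in MDCK-NBL2 and 0.0318% a lower one. The same held without untreated day 4 replicate 2, where the shares were 0.247% and 0.310%. Of all 31, with FADS1 among those tested, 5 had an unadjusted edgeR p under 0.05. DESeq2 called 1 of 30, ACACA, with a lower change in MDCK-NBL2, where 0.433% of all genes had a lower change and 0.810% a higher one. The rise of ACACA differed in MDCK-NBL2 by -0.77 ± 0.19 in log2 units, the smaller rise (adjusted p = 0.0952 from edgeR and 0.00466 from DESeq2). Without MDCK-NBL2 untreated day 4 replicate 3, 2 of 30 genes were called, ACACA and ELOVL6, both with a lower change in MDCK-NBL2. In that fit 2.21% of all genes had a lower change and 4.44% a higher one.

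The MDCK-NBL2 calls rested on the spread shared over all 24 libraries. A fit of only the day 0 and day 4 groups of that line called 0 of the 31 genes and 0 of all genes. Without day 0 replicate 1, 2 or 3 the count of the 31 that rose was 12, 11 or 9, where 7.56%, 4.10% or 6.68% of all genes rose. Without untreated day 4 replicate 1, 2 or 3 it was 16, 14 or 21, where 6.86%, 9.47% or 23.8% of all genes rose. FDFT1, SQLE, MSMO1, INSIG1, SCD, ACLY, LPIN1 and FADS2 were called in each of the 6 fits with 1 library left out. In MDCK-II 12 of the 20 calls held in each of 8 such fits, and those of MVD, FDPS, SQLE, CYP51A1, NSDHL, DHCR7, SREBF1 and NPC1 did not. Untreated MDCK-II day 4 replicate 1 had 29 of 30 genes (FADS1 left out) above their group mean, with a median deviation of 0.35 on the log2 scale, against 0.00 over all genes, and without it 13 of the 30 genes rose in MDCK-II, where 3.03% of all genes did. The fit of only the MDCK-II groups, in which FADS1 was not tested, called 16, all risen, where 6.52% of all genes rose and 3.55% fell. The summed level of 9 genes of dividing cells was 2273 to 2498 CPM at day 0 and 1091 to 1696 CPM at day 4 in MDCK-II, and 1911 to 2636 CPM and 248 to 2249 CPM in MDCK-NBL2. Its part in the rise of lipid genes was not tested.

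The other lipid lists were read over the same days, where 5.76% of all genes rose and 4.05% fell in MDCK-II and 12.4% and 5.26% in MDCK-NBL2. Of 21 tested genes of other fatty acid and glycerolipid synthesis, 8 rose and 0 fell in MDCK-II (median 0.42), led by ACSS2, which makes acetyl-CoA from acetate (1.79 ± 0.26, adjusted p = 0.000392), ACSL4, which activates fatty acids (0.83 ± 0.13, adjusted p = 0.000587), and AGPAT2, which makes phosphatidic acid (0.95 ± 0.18, adjusted p = 0.00314). In MDCK-NBL2 5 rose and 1 fell (median 0.26), among them DGAT2, which makes triglyceride (2.43 ± 0.58, adjusted p = 0.0111), and the fatty acid activators ACSL4 (0.49 ± 0.13, adjusted p = 0.0155) and ACSL3 (0.38 ± 0.10, adjusted p = 0.0159). Of 11 genes of SREBP processing and sterol-regulated degradation, 2 rose and 1 fell in MDCK-II, with RNF145, a ubiquitin ligase that binds sterol-sensing proteins, at 1.24 ± 0.22 (adjusted p = 0.00171). Of 9 genes of the isoprenoid branches, which leave the pathway at farnesyl diphosphate, 0 rose in either line and 2 fell in MDCK-NBL2, PDSS1 (-0.94 ± 0.26, adjusted p = 0.0217) and ZMPSTE24 (-0.44 ± 0.13, adjusted p = 0.0331). Among 13 genes of sterol uptake, storage and efflux, LIPA, the lysosomal lipase, fell in MDCK-II (-1.05 ± 0.22, adjusted p = 0.00518). Of 11 fatty acid oxidation genes, 0 rose in MDCK-II and 2 fell, the carnitine carrier SLC25A20 (-0.93 ± 0.22, adjusted p = 0.0121) and CPT1A, which loads fatty acids onto carnitine (-0.81 ± 0.23, adjusted p = 0.0333), and 1 rose in MDCK-NBL2, ETFDH (0.27 ± 0.09, adjusted p = 0.0428).

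**Figure D2:**
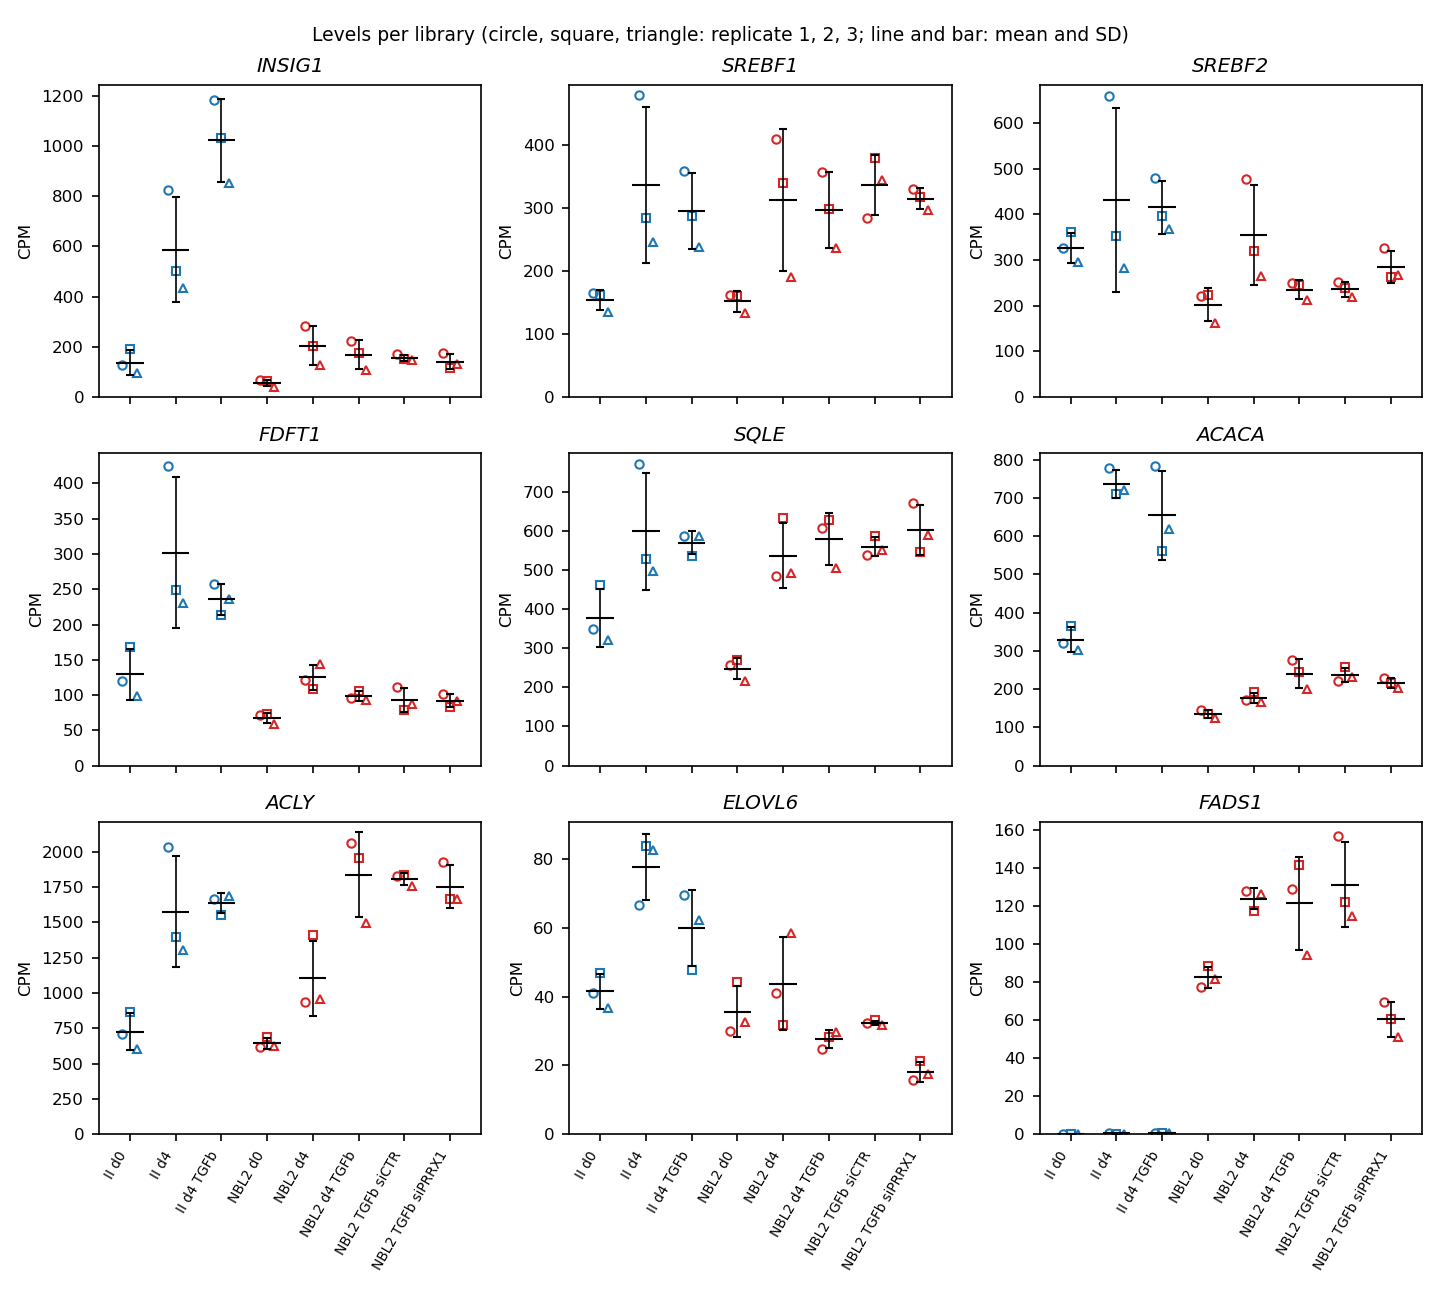
Levels in CPM (vertical axis from 0) of 9 genes in every library of the 8 groups, MDCK-II in blue and MDCK-NBL2 in red, with the group mean and SD in black. INSIG1, FDFT1 and ACACA were higher at day 4 than at day 0 in both lines and lower in MDCK-NBL2 than in MDCK-II, and FADS1 was near 0 in all MDCK-II libraries.

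Between the lines, genes of the mevalonate steps, INSIG1 and ACACA were lower in MDCK-NBL2. At day 0 10 of 30 genes were lower and 0 higher, where 13.8% of all genes were lower and 14.8% higher. At untreated day 4 14 were lower and 0 higher, against 15.3% and 21.0% of all genes, and at day 4 with TGFb 14 were lower and 1 higher, against 22.3% and 23.7%. The median log2 difference was -0.29, -0.45 and -0.43 over the 30 genes and -0.04, 0.02 and -0.01 over all genes. Without MDCK-NBL2 day 0 replicate 1, 9 of 30 were lower and 0 higher at day 0, against 11.9% and 12.7% of all genes. Without MDCK-NBL2 untreated day 4 replicate 2, 16 of 30 were lower and 0 higher at untreated day 4, against 15.7% and 18.5%. ACAT2, AACS, MVD, FDPS, FDFT1, INSIG1 and ACACA were lower in MDCK-NBL2 in all 3 states. The day 4 libraries here are those that also enter the comparisons with day 0. Other markers differed between the lines too. With TGFb 8 of 9 dividing-cell genes were lower in MDCK-NBL2 (median -2.72), with a summed level of 85.0 to 192 CPM against 680 to 925 CPM in MDCK-II. The 5 fibroblast markers were all at 0 in MDCK-II at day 0 and summed to at most 0.361 CPM in that line at day 4, where LUM, DCN and COL1A2 were at 0. In MDCK-NBL2 they summed to 12.4 to 68.9 CPM at day 0 (THY1 at 0), to 15.03 to 232 CPM untreated at day 4, with only COL1A2 above 0, and to 1026 to 2821 CPM with TGFb (PDGFRB at 0). The part of these markers in the line differences was not tested.

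**Figure D3:**
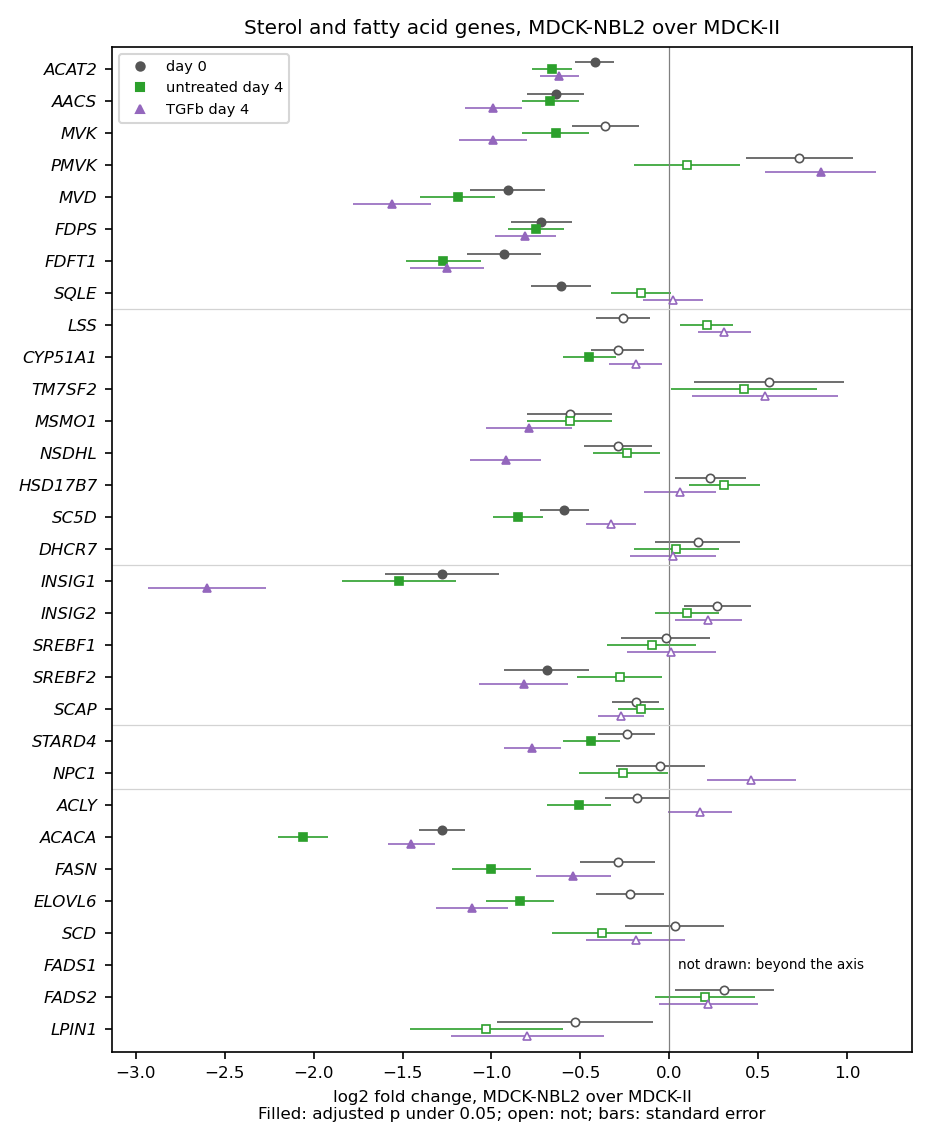
Log2 fold difference of MDCK-NBL2 over MDCK-II (horizontal axis, bars are SE) for 30 of the 31 genes at day 0 (grey circles), untreated day 4 (green squares) and TGFb day 4 (purple triangles); filled symbols passed the test. FADS1 is not drawn because its fitted differences of 7.78 to 11.47 lie beyond the axis; the filled symbols lie left of 0 for all genes drawn except PMVK at TGFb day 4.

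Of the control genes, INSIG1 was lower in MDCK-NBL2, at -1.28 ± 0.32 (adjusted p = 0.00478) at day 0, -1.52 ± 0.32 (adjusted p = 0.000936) at untreated day 4 and -2.60 ± 0.33 (adjusted p = 5.3e-06) with TGFb. With TGFb it stood at 1182, 1032 and 853 CPM in MDCK-II and 224, 176 and 108 CPM in MDCK-NBL2, with no overlap. SREBF1 did not pass the test at any state, at -0.02 ± 0.25, -0.10 ± 0.25 and 0.01 ± 0.25. SREBF2 was lower at day 0 (-0.69 ± 0.24, adjusted p = 0.0402) and with TGFb (-0.82 ± 0.25, adjusted p = 0.0107), and stood at -0.28 ± 0.24 (adjusted p = 0.392) untreated at day 4. The day 0 call of SREBF2 was lost without any 1 of the 6 libraries compared (adjusted p from 0.0533 to 0.166). INSIG2 and SCAP were called at no state.

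Of the 8 genes from acetyl-CoA to squalene epoxide, 6 were lower at each state, the same 5 each time with SQLE at day 0 and MVK at both day 4 states. MVD was at 161, 196 and 136 CPM in MDCK-II and 92.3, 95.9 and 73.3 CPM in MDCK-NBL2 at day 0, a difference of -0.91 ± 0.21 (adjusted p = 0.00266), and differed by -1.19 ± 0.21 (adjusted p = 0.000197) at untreated day 4 and -1.56 ± 0.22 (adjusted p = 1.24e-05) with TGFb. FDPS was at 229, 261 and 242 CPM and 152, 141 and 152 CPM at day 0 (-0.72 ± 0.17, adjusted p = 0.00241). AACS, which makes acetoacetyl-CoA from ketone bodies, was at 128, 155 and 117 CPM and 85.8, 90.6 and 80.1 CPM (-0.64 ± 0.16, adjusted p = 0.00464), and ACAT2 at 163, 187 and 169 CPM and 128, 133 and 127 CPM (-0.42 ± 0.11, adjusted p = 0.00791). The day 0 values of these 4 genes did not overlap between the lines. FDFT1 differed by -0.93 ± 0.21, -1.27 ± 0.21 and -1.25 ± 0.21 in the order of the states. MVK was lower at untreated day 4 (-0.64 ± 0.19, adjusted p = 0.0111) and with TGFb (-0.99 ± 0.19, adjusted p = 0.000434), SQLE was lower at day 0 (-0.61 ± 0.17, adjusted p = 0.00964) and stood at -0.16 ± 0.17 and 0.02 ± 0.17 at day 4, and PMVK was higher with TGFb (0.85 ± 0.31, adjusted p = 0.0316). The PMVK call was lost without TGFb replicate 1 or 3 of MDCK-II or replicate 2 of MDCK-NBL2, and that of SQLE without replicate 2 of MDCK-II or replicate 3 of MDCK-NBL2. That of MVK at untreated day 4 was lost without replicate 1 of either line (adjusted p up to 0.153 over its alternatives).

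Of the 8 sterol ring genes 1 was lower at day 0 and 2 at each day 4 state. SC5D was lower at day 0 (-0.59 ± 0.14, adjusted p = 0.00327) and untreated at day 4, where it stood at 81.3, 59.2 and 64.3 CPM in MDCK-II and 31.6, 41.9 and 39.8 CPM in MDCK-NBL2 (-0.85 ± 0.14, adjusted p = 7.91e-05). With TGFb its difference was -0.33 ± 0.14 (adjusted p = 0.0624). NSDHL was lower with TGFb, at 55.2, 51.1 and 50.8 CPM against 29.2, 29.6 and 24.2 CPM (-0.92 ± 0.20, adjusted p = 0.00092), and MSMO1 likewise (-0.79 ± 0.24, adjusted p = 0.0123), a call lost without replicate 3 of MDCK-NBL2. CYP51A1 was lower at untreated day 4 (-0.45 ± 0.15, adjusted p = 0.0207), a call lost in 4 of 13 alternatives (adjusted p up to 0.215). Among these were the fits without replicate 1 of either line and the replicate block, which compares the lines at fitted levels of replicate 1. STARD4 was lower at untreated day 4 (-0.44 ± 0.16, adjusted p = 0.0345) and with TGFb (-0.77 ± 0.16, adjusted p = 0.000868). Its untreated call was lost in 6 of 13 alternatives, among them those without any 1 of the MDCK-II libraries or MDCK-NBL2 replicate 1 (adjusted p up to 0.301). LSS, TM7SF2, HSD17B7, DHCR7 and NPC1 were called at no state.

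Among the fatty acid genes, ACACA was lower in MDCK-NBL2 at every state, at -1.28 ± 0.13 (adjusted p = 5.81e-07), -2.06 ± 0.14 (adjusted p = 1.01e-09) and -1.45 ± 0.13 (adjusted p = 1.03e-07). Its MDCK-NBL2 libraries, with or without TGFb, stayed between 125.0 and 276 CPM, below the lowest MDCK-II library at 303 CPM. ELOVL6 was lower at untreated day 4 (-0.84 ± 0.19, adjusted p = 0.00204) and with TGFb (-1.11 ± 0.20, adjusted p = 0.000192), and FASN likewise, from 2127 ± 252 CPM in MDCK-II to 1066 ± 161 CPM at untreated day 4 (SD, n = 3, adjusted p = 0.00114 in edgeR's fit) and at -0.54 ± 0.21 (adjusted p = 0.0454) with TGFb. The TGFb call of FASN was lost in 6 of 14 alternatives (adjusted p up to 0.21): without the filter on low counts, with the library number series as a term, without TGFb replicate 1 of MDCK-II or replicate 2 or 3 of MDCK-NBL2, and without MDCK-NBL2 day 0 replicate 1. ACLY was lower at untreated day 4 (-0.51 ± 0.18, adjusted p = 0.0333), a call lost without replicate 1 of MDCK-II or replicate 1 or 3 of MDCK-NBL2. SCD, FADS2 and LPIN1 were called at no state. In the fit of only the untreated day 4 groups, FDFT1, SC5D, FASN and ACACA were lower, 4 of 30 genes in place of 14. In that fit 6.01% of all genes were higher and 4.37% lower. The same kind of fit called 12 of 30 at day 0 in place of 10. There 2 were higher, PMVK and TM7SF2, and 10 lower, where 22.6% and 20.0% of all genes were. With TGFb it called 20 in place of 15, with 4 higher and 16 lower where 27.6% and 27.4% of all genes were.

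FADS1, a front-end desaturase that makes arachidonic acid, was close to 0 in MDCK-II. Its counts over the 3 libraries of a group were 1 at day 0, 19 untreated at day 4 and 26 with TGFb in MDCK-II, against 4390, 7417 and 2457 in MDCK-NBL2. In CPM it stood at 0, 0.0393 and 0 in MDCK-II and 77.4, 88.2 and 81.5 in MDCK-NBL2 at day 0, and at 0.648, 0.298 and 0.115 and 128, 118 and 126 untreated at day 4. The count ratio of the lines at day 0 was 4068 (95% counting interval 730 to 160700). At untreated day 4 it was 341 (218 to 567) and with TGFb 223 (152 to 343). Within MDCK-II the day 4 over day 0 ratio was 17.4 (2.76 to 722). No p-value of these differences is given, and calls of them are left out of the counts of called genes. The gene entered the fit through the line in which it was high. In MDCK-NBL2 the rise was 0.59 ± 0.19 (adjusted p = 0.0361), a call lost without any 1 of the 3 day 0 libraries or day 4 replicate 1. These intervals cover counting error only.

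The RefSeq gene order of another dog assembly places FADS2, FADS3, FEN1 and RAB3IL1 close to FADS1. These neighbours were looked at after the FADS1 values were seen. FADS2 was at 162 ± 33.0 CPM in MDCK-II and 201 ± 12.3 CPM in MDCK-NBL2 at day 0 (SD, n = 3), and its difference of 0.31 ± 0.28 (adjusted p = 0.46) did not pass. FADS3, a related desaturase, differed by 0.28 ± 0.22, and FEN1, a nuclease of DNA replication, by -0.14 ± 0.23, and neither was called at any state. RAB3IL1, an exchange factor for a vesicle GTPase, was lower in MDCK-NBL2 at day 0 (-0.83 ± 0.26, adjusted p = 0.0193) and with TGFb (-0.69 ± 0.26, adjusted p = 0.0363).

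The other lipid lists were read at the same 3 states, where 14.8%, 21.0% and 23.7% of all genes were higher in MDCK-NBL2 and 13.8%, 15.3% and 22.3% lower. Of 13 genes of sterol uptake, storage and efflux, 4 were higher at day 0, 6 at untreated day 4 and 6 with TGFb, and 1, 1 and 2 were lower. ABCA1, which exports cholesterol to lipoproteins, was at 0.683 ± 0.0537 CPM in MDCK-II and 40.9 ± 7.33 CPM in MDCK-NBL2 at day 0 (SD, n = 3), a difference of 5.88 ± 0.67 (adjusted p = 1.99e-06). CYP27A1, a sterol hydroxylase, was lower at day 0 (-4.54 ± 0.75, adjusted p = 0.000118) and untreated at day 4 (-5.08 ± 0.67, adjusted p = 7.74e-06). NCEH1, which splits cholesterol esters, was higher at day 0 (1.49 ± 0.29, adjusted p = 0.000665) and with TGFb (1.87 ± 0.30, adjusted p = 5.36e-05). Of 11 fatty acid oxidation genes, 3, 4 and 5 were higher in the same order of states and 1, 0 and 0 lower, with CPT1A higher at untreated day 4 (1.63 ± 0.24, adjusted p = 2.11e-05) and with TGFb (2.41 ± 0.24, adjusted p = 2.75e-07). Of 11 genes of SREBP processing and degradation, 4, 3 and 3 were higher and 0, 2 and 0 lower, with RNF139, a sterol-responsive ubiquitin ligase, at 0.68 ± 0.10, 0.77 ± 0.10 and 0.51 ± 0.10. Of 21 other fatty acid and glycerolipid genes, 4, 2 and 4 were higher and 4, 6 and 3 lower, at day 0 19.0% in each direction, and ACSL1, which activates fatty acids, was higher at each state (0.79 ± 0.13, 1.02 ± 0.13 and 0.94 ± 0.14). Of the 9 isoprenoid genes 1 was called at any state, PGGT1B, lower at untreated day 4 (-0.72 ± 0.16, adjusted p = 0.0014).

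TGFb moved few of these genes. In MDCK-II 0 of 30 passed with edgeR (1 at an unadjusted p under 0.05), where 11.8% of all genes rose and 9.27% fell. With DESeq2 1 of 30 passed, where 13.8% of all genes rose and 9.88% fell. In MDCK-NBL2 3 of the 31 rose and 4 fell, where 21.0% of all genes rose and 23.4% fell. The medians in MDCK-II were -0.05 over the 30 genes and -0.03 over all genes. In MDCK-NBL2 they were -0.02 over the 31 genes and -0.04 over all genes. Both shares of the 31 in MDCK-NBL2 lie below those of all genes. The untreated day 4 libraries are also those of the comparison with day 0.

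**Figure D4:**
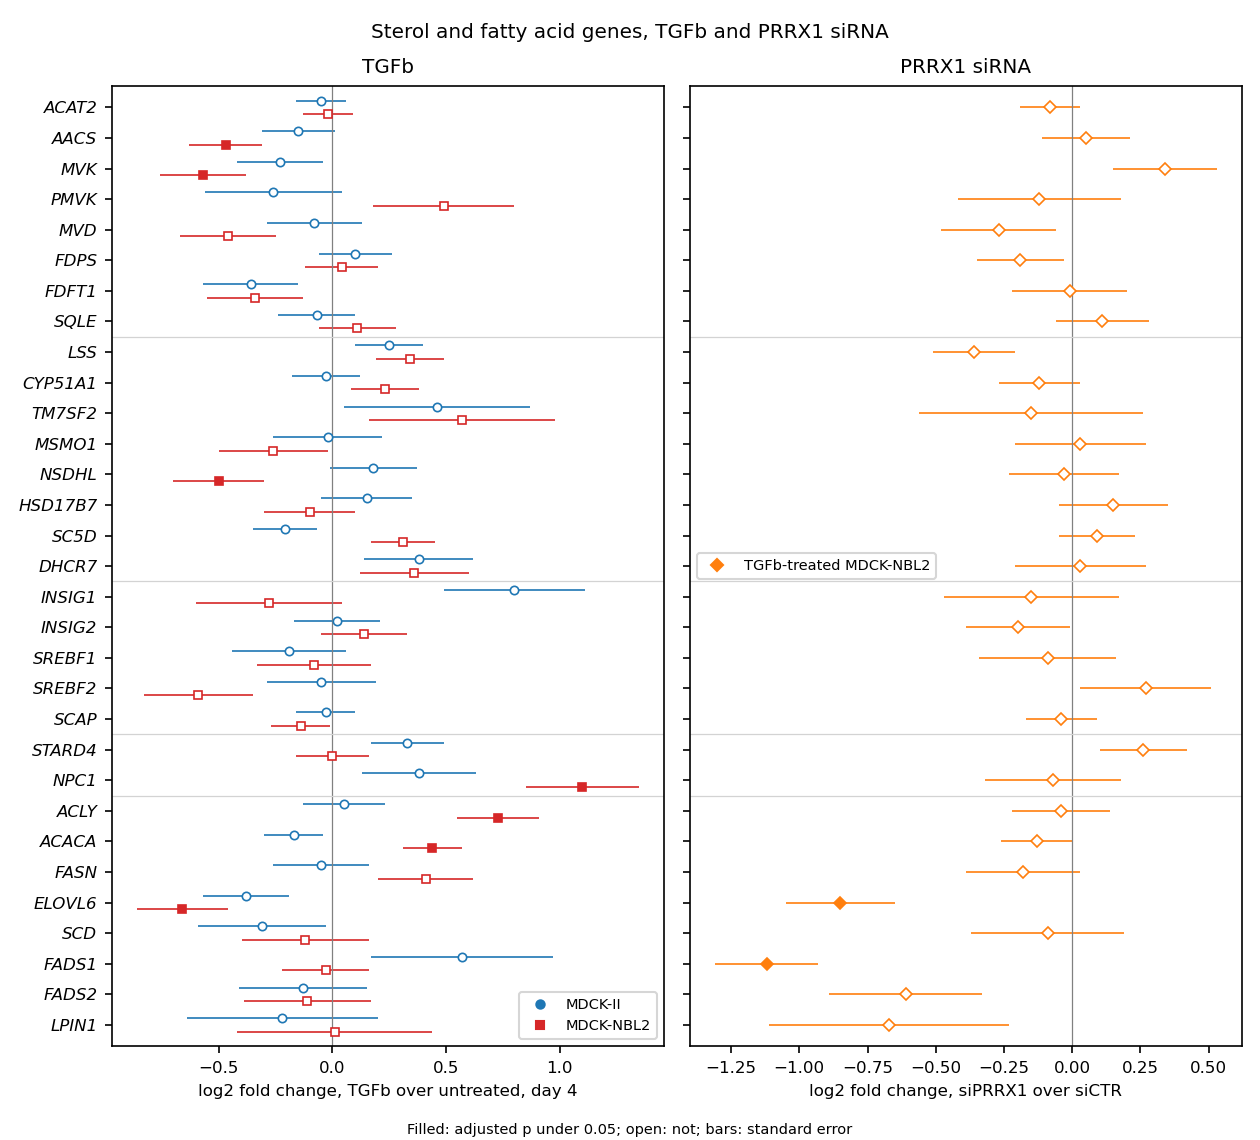
Log2 fold change (horizontal axes, bars are SE) of the 31 genes with TGFb over untreated at day 4 in both lines (left) and with siPRRX1 over siCTR in TGFb-treated MDCK-NBL2 cells (right); filled symbols passed the test. In these fits without pairing, 7 genes are filled on the left, all in MDCK-NBL2, and ELOVL6 and FADS1 on the right.

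INSIG1 was the gene with an unadjusted p under 0.05 in MDCK-II. It stood at 826, 503 and 433 CPM untreated and 1182, 1032 and 853 CPM with TGFb, so that all treated libraries lay above all untreated ones, and its change was 0.80 ± 0.31 (adjusted p = 0.0751). With the replicate number as a block, which pairs these libraries, it was called at 0.83 (adjusted p = 0.0158), with DESeq2 at 0.81 (adjusted p = 0.0451), and without untreated replicate 1 at 1.13 (adjusted p = 0.0259). SREBF1 stood at -0.19 ± 0.25 and SREBF2 at -0.05 ± 0.24. Of 13 sterol uptake, storage and efflux genes 4 rose and 0 fell in MDCK-II, where 11.8% and 9.27% of all genes did, among them ABCA1, the cholesterol efflux transporter (2.38 ± 0.57, adjusted p = 0.00717), and NPC2, which hands cholesterol to NPC1 (0.68 ± 0.18, adjusted p = 0.0138). GGPS1, which makes geranylgeranyl diphosphate, rose by 0.73 ± 0.17 (adjusted p = 0.00685). Of 21 other fatty acid and glycerolipid genes 1 rose and 3 fell, with ME1, a source of NADPH, at 0.74 ± 0.19 (adjusted p = 0.00974) and GPAM, the first acyltransferase of glycerolipid synthesis, at -0.69 ± 0.15 (adjusted p = 0.00361).

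In MDCK-NBL2, NPC1 rose most, from 79.5, 107 and 41.4 CPM untreated to 201, 147 and 143 CPM with TGFb (1.10 ± 0.25, adjusted p = 0.00183). ACLY went from 939, 1411 and 959 CPM to 2059, 1956 and 1494 CPM (0.73 ± 0.18, adjusted p = 0.00349), and ACACA from 172, 192 and 166 CPM to 276, 245 and 199.5 CPM (0.44 ± 0.13, adjusted p = 0.0107). The treated libraries of these 3 genes lay above all untreated ones. ELOVL6 fell from 41.2, 31.7 and 58.5 CPM to 24.8, 28.3 and 29.8 CPM (-0.66 ± 0.20, adjusted p = 0.0119), also without overlap. The other falls were those of MVK (-0.57 ± 0.19, adjusted p = 0.0213), AACS (-0.47 ± 0.16, adjusted p = 0.0235) and NSDHL, from 37.6, 39.1 and 41.1 CPM to 29.2, 29.6 and 24.2 CPM (-0.50 ± 0.20, adjusted p = 0.0429). INSIG1 stood at -0.28 ± 0.32 (adjusted p = 0.494), SREBF1 at -0.08 ± 0.25 (adjusted p = 0.825) and SREBF2 at -0.59 ± 0.24 (adjusted p = 0.0557).

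The count in MDCK-NBL2 depended on single libraries. Without untreated replicate 2, the library that stood apart, 7 rose and 5 fell, where 27.1% of all genes rose and 27.7% fell. LSS, TM7SF2, SC5D, DHCR7, ACACA, ACLY and NPC1 then rose, with NPC1 at 1.42, TM7SF2 at 1.55 and DHCR7 at 0.81. In that library TM7SF2 was at 112 CPM and DHCR7 at 195 CPM, against 31.1 and 26.4 CPM and 99.4 and 88.6 CPM in the other untreated replicates and 61.2 to 97.1 and 148 to 176 CPM with TGFb. MVK, MVD, SREBF2, AACS and ELOVL6 fell. Without TGFb replicate 1, whose title belongs to another library number series than the rest of both groups, ACLY and NPC1 were called, and these 2 calls held in each of 7 fits with 1 library left out. A fit of only the 2 groups called 0 of the 31 genes, with NPC1 at an adjusted p of 0.0794, where 2.06% of all genes rose and 2.42% fell. In MDCK-NBL2 the summed level of fibroblast markers was 15.03 to 232 CPM untreated and 1026 to 2821 CPM with TGFb, and that of dividing-cell genes 248 to 2249 and 85.0 to 192 CPM. Of 6 kidney epithelial markers 5 fell with TGFb and 0 rose (median -1.20), where 23.4% of all genes fell and 21.0% rose. The part of these markers in the changes of lipid genes was not tested.

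The other lipid lists were read for TGFb in MDCK-NBL2 against the 21.0% of all genes that rose and the 23.4% that fell. Of 13 genes of uptake, storage and efflux 3 rose and 2 fell (23.1% and 15.4%), with SCARB1, a lipoprotein receptor, from 266 ± 77.1 to 664 ± 65.8 CPM (SD, n = 3; 1.32 ± 0.18, adjusted p = 3.36e-05), NPC2 at 1.02 ± 0.19 (adjusted p = 0.000328) and SOAT1, which esterifies cholesterol, at -0.73 ± 0.16 (adjusted p = 0.00116). Of 11 genes of SREBP processing and degradation 4 rose and 2 fell, with RNF145 at 0.77 ± 0.22 (adjusted p = 0.00734) and ERLIN1, which helps degrade sterol sensors, at -0.71 ± 0.19 (adjusted p = 0.00517). GGPS1 rose by 0.94 ± 0.18 (adjusted p = 0.000384). Of 21 other fatty acid and glycerolipid genes 2 rose and 2 fell (9.52% each), with ME1 at 1.31 ± 0.19 (adjusted p = 5.78e-05) and DGAT1, which makes triglyceride, at -0.81 ± 0.18 (adjusted p = 0.00136). Of 11 fatty acid oxidation genes 2 rose and 1 fell.

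The TGFb responses of the lines were compared directly. Of the 30 genes without FADS1, 0 differed with edgeR without pairing, where 5.70% of all genes differed. With DESeq2 1 differed, where 3.90% of all genes had a higher response in MDCK-NBL2 and 5.50% a lower one. Of all 31, with FADS1 among those tested, 5 had an unadjusted edgeR p under 0.05. With the replicate number as a block, ACACA was called at 0.61 (adjusted p = 0.0494 from edgeR) and INSIG1 at -1.10 (adjusted p = 0.0484). In that fit 2.49% of all genes had a higher response and 3.04% a lower one. The block pairs the MDCK-II libraries but also those of MDCK-NBL2, whose numbers were not taken to pair in this comparison. ACACA had the smallest adjusted p, with a response higher in MDCK-NBL2 by 0.61 ± 0.19 (adjusted p = 0.0561). Without the block INSIG1 was at -1.08 ± 0.45 (adjusted p = 0.153), SREBF1 at 0.11 ± 0.35 and SREBF2 at -0.54 ± 0.34. Without MDCK-NBL2 untreated replicate 2, the difference was called for SC5D, ACACA, ACLY and NPC1, where 9.93% of all genes had a higher response in MDCK-NBL2 and 11.2% a lower one. It was called for SREBF2 without MDCK-II untreated replicate 1, at -0.98 (adjusted p = 0.0391), where 2.87% of all genes were higher and 4.04% lower. For ACACA it was called without TGFb replicate 1 of MDCK-II (1.21% and 1.96% of all genes) or replicate 3 of MDCK-NBL2 (1.35% and 1.87%). Among the other lists RNF145 differed (1.23 ± 0.31, adjusted p = 0.0252), as did HSD17B12, a fatty acid elongation enzyme (0.70 ± 0.16, adjusted p = 0.0172).

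With siPRRX1, 2 of the 31 genes were lower than with siCTR in TGFb-treated MDCK-NBL2 cells without pairing, and 1 with the libraries paired by number. PRRX1 itself was at 33.9, 7.35 and 3.88 CPM with siCTR and 1.11, 0.339 and 0 CPM with siPRRX1. FADS1 and ELOVL6 fell and 0 genes of the list rose (4 had an unadjusted p under 0.05), where 0.810% of all genes rose and 1.19% fell. The median was -0.09 over the 31 genes and 0.00 over all genes. FADS1 went from 157, 122 and 115 CPM to 69.3, 60.7 and 51.0 CPM (-1.12 ± 0.19, adjusted p = 0.00312), with no overlap, and it was called in all 15 alternative fits. Its counts of 5016 and 2271 gave a ratio of 0.444 (95% counting interval 0.423 to 0.467). ELOVL6 went from 32.3, 33.1 and 31.9 CPM to 15.6, 21.1 and 17.4 CPM (-0.85 ± 0.20, adjusted p = 0.0326), also with no overlap. With the replicate number as a block, which pairs these libraries, 1 gene was called, since ELOVL6 stood at -0.86 with an adjusted p of 0.05, not under the threshold.

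The ELOVL6 call was also lost without siCTR replicate 1, 2 or 3 or siPRRX1 replicate 1 or 3, with adjusted p-values of 0.0845 to 0.176. It was lost again when only replicates 2 and 3 were compared, whose titles belong to another library number series than those of replicate 1, at -0.77 (adjusted p = 0.27). FADS2, LPIN1 and LSS were looked at after their values were seen. FADS2 stood at -0.61 ± 0.28 (adjusted p = 0.32), with siCTR at 431, 566 and 439.5 CPM and siPRRX1 at 366, 338 and 239 CPM, which did not overlap. LPIN1 stood at 50.8, 59.4 and 49.99 CPM and 40.9, 28.2 and 31.2 CPM, also without overlap, at -0.67 ± 0.44 (adjusted p = 0.521); a fit of only these groups called it at -0.65 (adjusted p = 0.0245). LSS stood at -0.36 ± 0.15 (adjusted p = 0.247). INSIG1, SREBF1 and SREBF2 stood at -0.15 ± 0.32, -0.09 ± 0.25 and 0.27 ± 0.24. All 8 fatty acid genes had negative changes, from -1.12 to -0.04, of which FADS1 and ELOVL6 passed. Of the other lipid lists 1 gene was called, ACSL1, which was higher with siPRRX1 (0.52 ± 0.13, adjusted p = 0.0477). The summed fibroblast markers were 2023 to 2463 CPM with siCTR and 683 to 1404 CPM with siPRRX1, and the 6 kidney epithelial markers summed to 2315 to 4216 and 3347 to 4810 CPM. Of these 6, the adhesion gene CDH1 (0.68 ± 0.16, adjusted p = 0.0327) and the tight junction gene CLDN3 (1.29 ± 0.33, adjusted p = 0.047) rose. The part of these markers in the falls of FADS1 and ELOVL6 was not tested.

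TM7SF2, HSD17B7, INSIG2 and SCAP were called in no comparison with edgeR over all 24 libraries when no further term was fitted. With the replicate number as a block, HSD17B7 was called for the day change in MDCK-NBL2, at 0.56 (adjusted p = 0.0409). In that fit SCAP was lower in MDCK-NBL2 with TGFb, where the block compares fitted levels of replicate 1 of each line. TM7SF2 varied widely, from 14.5 CPM in an MDCK-II day 0 library to 112 CPM, and its SE reached 0.42 between the days. Libraries of 1 group differed over most of these genes at once. Beside MDCK-II untreated day 4 replicate 1, MDCK-II day 0 replicate 2 and the siPRRX1 replicate 1 each had 29 of 30 genes above their group mean, at medians of 0.23 and 0.17. MDCK-II untreated day 4 replicate 3 had 1 of 30 above it, at a median of -0.25. Over all genes tested the same medians lay between -0.06 and 0.03 in every library.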

How the data were processed

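RNA-seq gene counts of 24 libraries in 8 groups were analysed. The deposited table holds counts per gene that the authors made from stranded mRNA libraries. Per the submitters' processing notes, STAR 2.5.3a, FastQC, RSEM 1.3.0 and the CanFam3.1 genome were used; their order is not given there, nor are the annotation and the strand setting of the counting. Counts were taken as deposited, and genes were matched by the symbol in the table.

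The edgeR 4.0.16 quasi-likelihood test (R 4.3.3) was fitted on all 24 libraries with 1 mean per group, TMM scaling, filterByExpr (minimum count 10, minimum total 15), a prior count of 0.125 and 16 residual degrees of freedom. A gene was called at a Benjamini-Hochberg adjusted p under 0.05 over the 12466 genes tested. The scripts were tested on simulated data. DESeq2 1.42.0, other scaling, no filter, fits of only the groups compared, a block for the replicate number, a term for the library number series in the titles and left-out libraries were the alternatives. The block had separate terms for each line with replicate 1 as reference, so that it compares the lines at fitted levels of that replicate. Total counts of 6134929 to 27567296 per library set the precision of low genes such as PMVK and, in MDCK-II, FADS1.

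Same-numbered libraries deviated together for TGFb in MDCK-II (correlations over genes of 0.32, 0.18 and 0.20) and for siPRRX1 (0.28, 0.14 and 0.15), so the numbers were taken to pair these, from the data and not from the labels. In the other comparisons they were not.

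The genes and the other lists were chosen with earlier results of these data known. The lists were isoprenoid branches, SREBP processing and sterol-regulated degradation, sterol uptake, transport, storage and efflux, other fatty acid and glycerolipid synthesis, fatty acid oxidation, dividing cells, and markers of kidney epithelium, fibroblasts, endothelium, leukocytes, adipocytes and hepatocytes. In each comparison up to 10 genes with the smallest adjusted p were named, with INSIG1, SREBF1 and SREBF2 always. Levels per library were given for these 3, for the 12 genes called in most comparisons and for some chosen later. From each other list up to 3 genes were named per comparison; some results of these lists are not reported here. The test of the day change between the lines, and the counts over 30 genes without FADS1, were added after seeing the data. No sequence is printed, since promoters and proteins were not used here.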

Additional observations from a re-analysis of the deposited data

How the results depend on the processing

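Across the named genes, FADS1 included, no direction of a call reversed. With 1 library left out 727 values kept their side of the threshold, 107 lost the call and 4 gained it. Under the other settings 606 kept it, 59 lost it and 5 gained it. With the replicate number as a block, the count of called genes of the 31 was 1 for TGFb in MDCK-II (INSIG1, in place of 0), 2 for the TGFb response between lines (ACACA and INSIG1, in place of 0) and 1 for siPRRX1 (FADS1, in place of 2). The block gave 10 for TGFb in MDCK-NBL2, 5 up and 5 down, where 22.1% of all genes rose and 23.4% fell. For the day change 22 rose in MDCK-NBL2 (12.4% and 6.82%) and 20 in MDCK-II (5.94% and 4.86%). The day change differed between lines for 0 (0.112% and 0.160%). For the lines at day 0, untreated day 4 and TGFb day 4, 11, 14 and 15 genes were lower in MDCK-NBL2 and 0 higher. Of all genes 9.87%, 11.1% and 16.1% were lower there and 10.7%, 14.9% and 17.4% higher. The block was fitted within each line, so these line counts compare fitted levels of replicate 1 and not the line means. A DESeq2 Wald test called 1 gene each for TGFb in MDCK-II, the TGFb response between lines and the day change between lines, all 0 in edgeR. The shares of all genes were 13.8% and 9.88%, 3.90% and 5.50%, and 0.810% and 0.433% in that order. Fits of only the groups compared, with fewer libraries behind the spread, called 0 for TGFb in MDCK-NBL2 (2.06% and 2.42%). They called 0 for the day change in MDCK-NBL2 (0% and 0%) and 4 for the lines at untreated day 4 (6.01% and 4.37%). For the lines they called 2 higher and 10 lower at day 0 (22.6% and 20.0%). With TGFb they called 4 higher and 16 lower (27.6% and 27.4%), and for siPRRX1 3 (4.08% and 6.23%). Each of the last 3 comparisons had more calls than the fit reported. The share of all genes called moved the same way in each of these fits. It did not in that of the MDCK-II day change, where 16 rose in place of 20. There 6.52% of all genes rose in place of 5.76%. With siPRRX1 replicates 2 and 3 against siCTR replicates 2 and 3, 1 gene was called (0.0876% and 0.406%). Leaving out 1 library gave 9 to 11 called genes for the lines at day 0, 11 to 17 at untreated day 4 and 14 to 16 with TGFb. For the day change it gave 13 to 21 risen in MDCK-II, where 2.56% to 8.64% of all genes rose. In MDCK-NBL2 it gave 9 to 21 risen, where 4.10% to 23.8% rose. Between lines it gave 0 to 2, where 0% to 4.44% of all genes had a higher change in MDCK-NBL2 and 0.0159% to 2.21% a lower one. It gave 0 to 1 for TGFb in MDCK-II (6.44% to 16.1% and 3.55% to 14.6%) and 2 to 12 in MDCK-NBL2 (16.3% to 27.1% and 18.5% to 27.7%). It gave 0 to 4 between lines (1.13% to 9.93% and 1.31% to 11.2%) and 1 to 2 for siPRRX1 (0.102% to 1.97% and 0.322% to 3.24%). The next ranges count all genes over every alternative, not only with 1 library left out. They ran from 1257 to 3862 for TGFb in MDCK-II (2626 in the fit reported) and from 510 to 6890 in MDCK-NBL2 (5525). They ran from 48 to 2653 between lines (711) and from 54 to 1159 for siPRRX1 (249). For the day change they ran from 509 to 2075 in MDCK-II (1223), from 0 to 5324 in MDCK-NBL2 (2206) and from 0 to 849 between lines (14). For the lines they ran from 2567 to 5017 at day 0 (3558) and from 1267 to 5998 at untreated day 4 (4527). With TGFb they ran from 4171 to 6392 (5728). The lows of 510, 48, 0 and 1267 and the high of 1159 came from fits of only the groups compared. The cause of these shifts was not tested.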
